A study of Homo sapiens with 9 samples.

Results

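The effect of DsiRNA 13.8 against TBX3 was measured in 501mel, an established human melanoma line, by comparing it with the control DsiRNA NC1. The comparison takes the 3 libraries labelled as a TBX3 knockdown with DsiRNA 13.8 and the 3 labelled as control, which are 6 of the 9 libraries of the series, and covers every gene of the count table. A DsiRNA is a short double-stranded RNA that Dicer cuts into a silencing guide. All 6 cultures were 501mel cells, all received a DsiRNA by lipofection, and all were harvested 24 h later for total RNA, so the controls also carried lipid and double-stranded RNA. The other 3 libraries received DsiRNA 13.6, a second reagent against TBX3. They share the estimate of the spread in the fit, stand outside the comparison with control, and appear below only for side by side values and for the direct difference between the reagents. The labels call the libraries of a group biological replicates and do not say how the cultures were separated, so p-values measure the spread between these libraries. Everything below holds for 1 cell line, 1 time point and RNA only.

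TBX3 is a T-box transcription factor, best known as a repressor, that acts in limb, mammary gland and stem cell development and is often abundant in melanoma. Melanocytic cells build melanin in melanosomes, where tyrosinase (TYR), TYRP1 and DCT carry out the enzymatic steps and PMEL forms the fibrils. MITF is the master transcription factor of that programme, and the receptor MC1R feeds it through cyclic AMP, protein kinase A and CREB. A silencing guide lowers the transcript it matches along its length, can also lower transcripts whose 3′ UTR pairs with its first bases, the seed, and double-stranded RNA can be sensed by cytosolic receptors that switch on interferon genes.

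The libraries held 38105026 to 45386350 counted reads in the control group and 47137721 to 52272147 with 13.8. A read was counted for 18129 to 18691 entries of the table in a control library and for 19006 to 19182 in a 13.8 library. The effect of this difference in depth on genes with few reads was not tested beyond the scaling of the libraries. Replicate libraries had Pearson correlations of 0.991 to 0.995 across genes, against 0.968 to 0.972 between the groups. The first principal component held 71.6% of the variance and separated the groups, and control replicate 3 stood apart from the other controls on the second, which held 10.1%. Where a gene with its values below crosses the threshold once 1 library is left out, the adjusted p without that library is given beside it. The library kit keeps strand information, but the strand setting of the counting is not given in the sources used here, so genes that overlap another, such as CDKN2B with its antisense RNA, are uncertain. The melanoma marker list (PMEL, MLANA, TYR, SOX10, MITF, S100B, DCT and PAX3) summed to 10163 to 11627 CPM (the usual unit of counts scaled to library size) in the controls and 9859 to 10441 CPM with 13.8, so the defining genes of the labelled line were counted in both groups.

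TBX3 itself was lower in every 13.8 library. It stood at 88.6, 83.8 and 84.0 CPM in the 3 controls and at 36.1, 33.7 and 36.2 CPM with 13.8, so the groups did not overlap. The log2 fold change was −1.27 ± 0.07 (SE), 95% interval −1.43 to −1.12, with an adjusted p of 1.03e-08 (edgeR quasi-likelihood F test, two-sided, Benjamini-Hochberg over the 14731 genes tested), which is 58.6% below the control mean. With 13.6 it stood at 46.4, 41.0 and 39.4 CPM, and the direct difference of 13.8 minus 13.6 was −0.26 ± 0.07 on the log2 scale (adjusted p = 0.00699). The knockdown was thus slightly deeper with 13.8. Whether these reads came from the whole transcript or from fragments that the guide left cannot be told from counts per gene.

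Many members of the T-box family were too scarce to be tested. Of 17 members in the table, 8 had enough reads to be tested, and TBX15 was the one that rose, from 0.409 ± 0.0731 to 1.23 ± 0.154 CPM (SD, n = 3), a log2 fold change of 1.59 ± 0.28 at low abundance. TBX18 fell by 0.40 on the log2 scale. TBX2, the closest relative of TBX3 and another repressor of cell cycle inhibitors, stood at 24.9 ± 1.57 and 28.1 ± 1.30 CPM and did not pass the test (0.18 ± 0.08, adjusted p = 0.0712).

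Of 5 genes reported elsewhere as targets of TBX3 repression, 3 rose and 1 fell (median 0.49), beside 27.5% and 27.9% of all genes. CDKN2A, which encodes the cell cycle inhibitor p16 and ARF, stood at 146, 147 and 236 CPM in the controls and 271, 387 and 407 CPM with 13.8 (1.01 ± 0.19, adjusted p = 9.65e-04). NCAM1, a neural adhesion molecule, rose from 75.6 ± 10.5 to 113 ± 12.8 CPM (0.58 ± 0.10). CDH1, which encodes E-cadherin, was scarce at 1.56, 1.69 and 1.39 CPM in the controls and 2.15, 1.40 and 1.89 CPM with 13.8, with overlapping groups (0.23 ± 0.20, adjusted p = 0.348). CDKN1A, which encodes the inhibitor p21, went the other way on few reads: 36, 11 and 16 reads in control libraries against 1, 3 and 2 with 13.8. Scaled by library totals, that is a ratio of 0.0803, with an exact 95% interval from 0.0284 to 0.185 that covers counting error only.

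Of all genes, 8169 of the 14731 genes tested passed the threshold of an adjusted p under 0.05, or 55.5%. Of these, 4053 were higher with 13.8 (27.5% of genes tested) and 4116 lower (27.9%). Most changes were small: the median size was 0.55 on the log2 scale, and 53.7% of the genes called changed at most 1.5-fold. A change of at least 2-fold was called for 1103 genes upward (7.49%) and 585 downward (3.97%). All 3 libraries with 13.8 lay above all 3 controls for 4339 genes (29.5%) and below them for 4360 (29.6%). Any list of genes should therefore be read against 27.5% and 27.9% of all genes called in each direction; the figure of list shares draws that level as dashed lines.

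**Figure D1:**
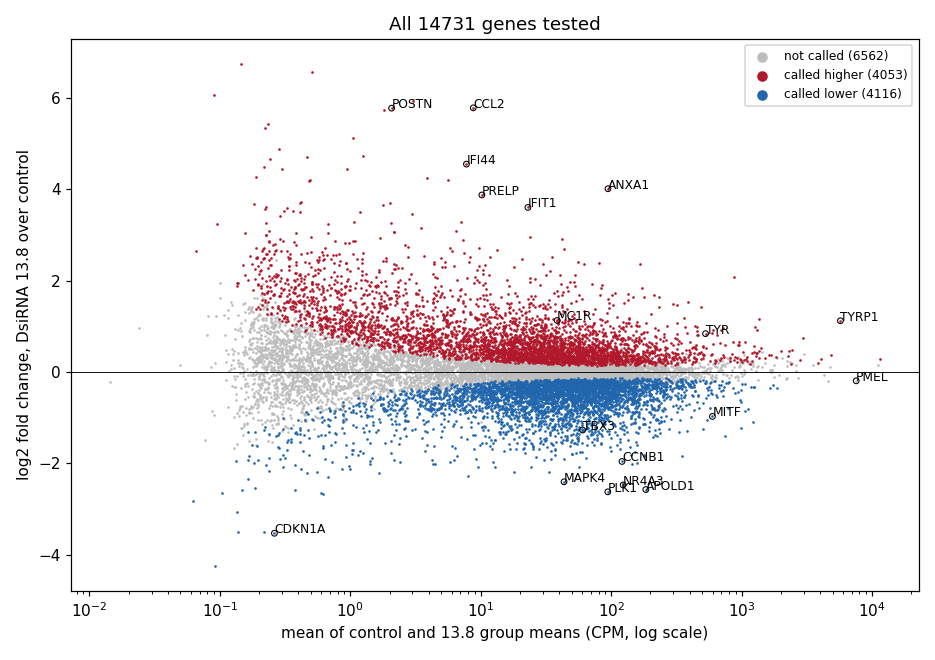
Each dot is a gene tested: the x axis is the mean of the control and 13.8 group means in CPM on a log scale, and the y axis is the log2 fold change of 13.8 over control, with genes called higher in red (4053), called lower in blue (4116) and not called in grey. CCL2 stands at 5.78, ANXA1 at 4.01, TYRP1 at 1.12, MITF at −0.97 and PLK1 at −2.63, while the spread of the dots widens at low abundance.

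Among genes with a mean of 5 CPM or more, the 15 that rose most included genes of inflammation, of the interferon response and of the extracellular matrix. CCL2, the chemokine that attracts monocytes, stood at 0.303, 0.286 and 0.342 CPM in the controls and 15.6, 19.1 and 17.0 CPM with 13.8, a log2 fold change of 5.78 ± 0.25 (adjusted p = 1.24e-09). ANXA1, a phospholipid-binding annexin, stood at 14.8, 6.89 and 11.3 CPM against 145, 213 and 176 CPM (4.01 ± 0.23). PRELP, a leucine-rich matrix proteoglycan, stood at 1.23, 1.59 and 1.10 CPM against 19.2, 19.2 and 18.9 CPM (3.87 ± 0.13). In each of these the 3 libraries with 13.8 were several times above the highest control. DDR2, a collagen receptor kinase, rose by 3.28 on the log2 scale, IGFBP5, a binding protein for insulin-like growth factors, by 2.95, and FREM2, a basement membrane protein, by 2.67. The sestrin SESN3, a stress-induced regulator of mTORC1, rose by 2.92, from 9.77 ± 1.07 to 73.7 ± 5.01 CPM. METTL7A (3.08), SNX22 (2.89), the sodium pump subunit ATP1B2 (2.72) and SH3BGRL (2.69) complete the 15 together with IFI44, BST2, IFIT1 and ID1, which are described with their groups.

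The 15 that fell most included mitotic regulators and a nuclear receptor of the immediate-early class. PLK1, the polo-like kinase that drives mitotic entry and spindle assembly, stood at 170.1, 161 and 155 CPM in the controls and 27.1, 27.6 and 24.1 CPM with 13.8, a log2 fold change of −2.63 ± 0.07 (adjusted p = 1.18e-10). APOLD1, an early response gene, fell from 316 ± 23.3 to 52.96 ± 9.55 CPM (−2.58 ± 0.12), and EN2, a homeobox transcription factor, from 252 ± 9.57 to 63.1 ± 2.81 CPM (−1.996 ± 0.06). PIGA, an X-linked gene for the first step of GPI anchor synthesis, stood at 28.8, 29.8 and 30.3 CPM against 6.87, 6.49 and 6.20 CPM (−2.18 ± 0.07). No library with 13.8 reached the lowest control in any of these genes. The estrogen receptor ESR2 fell by 2.27 on the log2 scale, the p53 relative TP73 by 2.07, the histone chaperone ASF1B by 2.08, the atypical MAP kinase MAPK4 by 2.41 and the RAS activator RASGRP1 by 1.98. The rest of the 15 were NR4A3 (−2.48), SCML1 (−2.18), TTC7B (−2.09), the nucleotide synthesis enzyme PRPS2 (−2.07), the spindle midzone protein PRC1 (−2.01) and the centromere factor OIP5 (−1.97).

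A sequence feature was tabulated beside these lists, the 7-base word AACTGTC in the longest annotated 3′ UTR of each gene (GENCODE 29, GRCh38). The word was picked with these data in view, so its share among the genes that fell is a description and supports nothing. It was read on the transcript strand only. Of the 15 genes that fell most, 9 hold it, against 0 of the 15 that rose most and 10.99% of the 12939 genes tested that have an annotated 3′ UTR. TBX3 holds it as well. The lines below give the first copy in each of those 9 genes, which are the carriers of the word among the 15 that fell most, then the copies in 3 genes that hold the word and rose, with 30 bases of transcript sequence read 5′ to 3′ and the word in capitals.

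PLK1, chr16:23690309-23690338, plus strand: attgaattcggAACTGTCctttccttggct
APOLD1, chr12:12789640-12789669, plus strand: ggtctgtaagaAACTGTCagtgaaaatatg
PIGA, chrX:15320361-15320390, minus strand: tggatgttattAACTGTCattgttgttgcc
SCML1, chrX:17754104-17754133, plus strand: tattatattaaAACTGTCatattttggcta
TTC7B, chr14:90540969-90540998, minus strand: gtaaagaaaacAACTGTCcttttctcccca
ASF1B, chr19:14119641-14119670, minus strand: gggaccctgaaAACTGTCcctccccagccc
PRPS2, chrX:12823003-12823032, plus strand: gtctttaagtgAACTGTCttaaatgagaaa
EN2, chr7:155464308-155464337, plus strand: aagaccaatccAACTGTCcatctgtggctg
RASGRP1, chr15:38489617-38489646, minus strand: aatttgtgcttAACTGTCttcactattaat
PCDH9, chr13:67221558-67221587, minus strand: ggttctgggtaAACTGTCatttaattttct
NREP, chr5:111729648-111729677, minus strand: aatttttatatAACTGTCtttagctcttct
CSRNP3, chr2:165683672-165683701, plus strand: tgtgttagaacAACTGTCttgggtagtaaa

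PIGA holds 3 copies, PRPS2 2 copies and PCDH9 4, whereas the other falls shown hold 1. Over the whole table, the 1422 genes with the word were called lower in 45.5% and higher in 20.3%, with a median log2 fold change of −0.20. The 11517 genes without it were called lower in 27.7% and higher in 29.3%, with a median of 0.02. Genes with 2 or more copies, 175 in all, were called lower in 53.7%, with a median of −0.30. With 13.6 against the same controls, the genes with the word had a median of 0.08 and were called lower in 20.7%. Genes with longer 3′ UTRs have more room for any word, and the part of length in these shares was not tested. PCDH9 (2.30), NREP (2.24) and CSRNP3 (1.89), chosen after their values were seen, hold the word and rose.

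**Figure D2:**
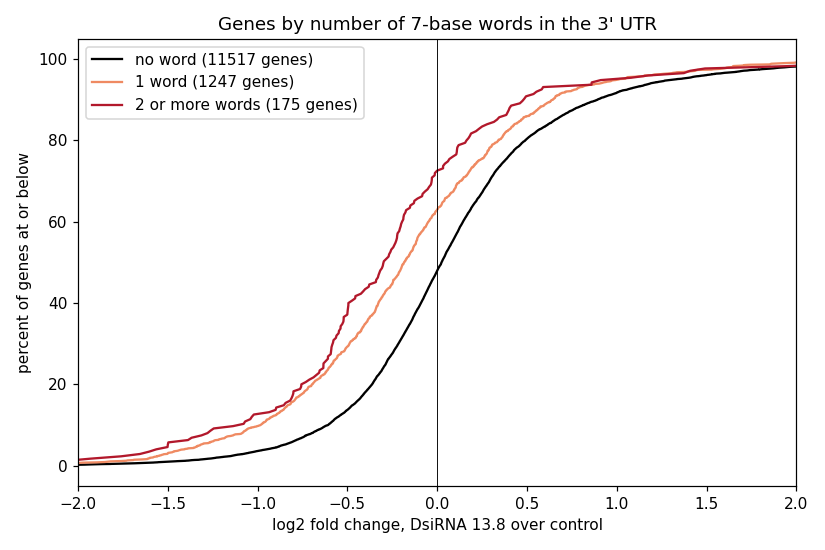
Cumulative share of genes (y axis, percent of genes at or below) against the log2 fold change of 13.8 over control (x axis), for genes whose 3′ UTR holds no copy of the 7-base word (black), 1 copy (light) or 2 or more copies (red). The curves for 1 copy and for 2 or more lie to the left, with medians of −0.18 and −0.30 against 0.02 for no copy, and the curves cover both falls and rises.

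The pigment genes split into rises and falls with 13.8. Of 30 melanin and melanosome genes tested, 9 rose and 11 fell, with a median of −0.11, against a median of 0.01 over all genes tested. All the tyrosinase family members rose. TYR stood at 373, 399.6 and 366 CPM in the controls and 729, 658 and 648 CPM with 13.8 (0.84 ± 0.07, adjusted p = 2.03e-07). TYRP1 stood at 3456, 3614 and 3739 CPM against 7999, 7754 and 7735 CPM (1.12 ± 0.06, adjusted p = 1.34e-08), and DCT at 522, 575 and 504 CPM against 980.5, 755 and 750.5 CPM (0.64 ± 0.10, adjusted p = 1.05e-04). None of the 3 overlapped between the groups, and DCT was highest in 13.8 replicate 1. GPNMB, a melanosome and lysosome glycoprotein, rose from 909 ± 53.6 to 1707 ± 88.4 CPM (0.91 ± 0.07), and BLOC1S6, a subunit of the BLOC-1 sorting complex, from 42.5 ± 0.643 to 102 ± 2.99 CPM (1.27 ± 0.06).

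Other members of the melanosome list fell. RAB38, a small GTPase that routes TYR and TYRP1 to melanosomes, stood at 509, 536 and 599.6 CPM against 156, 148 and 152 CPM (−1.85 ± 0.07, adjusted p = 4.80e-10). OCA2, the melanosome anion transporter, stood at 68.1, 72.8 and 61.0 CPM against 29.7, 21.3 and 23.6 CPM (−1.44 ± 0.12, adjusted p = 5.16e-07). RAB27A, which tethers mature melanosomes to actin, fell by 0.92 on the log2 scale, the adaptor subunit AP3B1 by 1.26 and HPS4, part of the exchange factor for RAB38, by 1.09. The fibril protein PMEL stood at 8065 ± 836 and 7042 ± 83.9 CPM and did not pass (−0.20 ± 0.08, adjusted p = 0.0597; 0.0139 without control replicate 1), though DESeq2 and 5 other settings called it lower. MLANA fell by 0.27. The transporter SLC45A2 (−0.20 ± 0.10, adjusted p = 0.107; 0.00502 without control replicate 1) and the channel TRPM1 (−0.29 ± 0.14, adjusted p = 0.0957; 0.0273 without 13.8 replicate 1) did not pass either.

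The transcription factors above these genes did not follow the tyrosinase family. MITF stood at 721, 925 and 729 CPM in the controls and 466, 363 and 379 CPM with 13.8 (−0.97 ± 0.11, adjusted p = 7.09e-06), with every 13.8 library below every control. SOX10, which switches on MITF, fell from 609.5 ± 40.8 to 479 ± 35.6 CPM (−0.35 ± 0.07), the WNT effector LEF1 by 0.58, SNAI2 by 0.27 and TFEB, a relative of MITF that governs lysosomes, by 0.46. TFAP2A, a partner of MITF at pigment genes, rose from 138 ± 11.3 to 212 ± 15.9 CPM (0.62 ± 0.07), and SOX5 rose by 0.74. PAX3 (0.13 ± 0.07, adjusted p = 0.151) and ZEB2 (0.11 ± 0.07, adjusted p = 0.184) did not pass. In all, 2 of 12 lineage factors tested rose and 5 fell (median −0.12). Genes bound or driven by MITF outside pigment were mixed, with 9 of 29 higher and 7 lower (median 0.01). The kinase gene CDK2 fell by 1.09 and the coactivator PPARGC1A by 1.03, while the endothelin receptor EDNRB rose by 0.91 and the prostaglandin-degrading enzyme HPGD by 0.89.

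MC1R rose while most of the pathway behind it fell. The receptor stood at 22.7, 27.3 and 22.8 CPM in the controls and 49.5, 52.6 and 56.5 CPM with 13.8 (1.13 ± 0.08, adjusted p = 1.28e-07), with no overlap. Of 33 MC1R and cAMP genes tested, 21 fell and 3 rose (median −0.48), beside 27.9% and 27.5% of all genes. The adenylyl cyclase ADCY2 fell by 1.72 on the log2 scale, the catalytic subunit PRKACB by 1.47, the regulatory subunit PRKAR2A by 1.22 and the phosphodiesterase PDE3A by 0.84. Transcripts that cAMP and CREB are known to induce also fell. NR4A3, an orphan nuclear receptor, stood at 203, 232 and 194 CPM against 41.2, 36.2 and 35.5 CPM (−2.48 ± 0.08, adjusted p = 2.54e-10), and NR4A1, its relative, fell by 1.41. The G protein subunit GNAS (0.12 ± 0.07, adjusted p = 0.181) and PRKACA (−0.12 ± 0.08, adjusted p = 0.206; 0.0275 without control replicate 3) did not pass, and CRTC1, a CREB coactivator, rose by 0.57. The 7-base word described above is held by 10 of the 33 members tested, of which 6 were called lower. Over all genes tested with an annotated 3′ UTR, 10.99% hold it, and 45.5% of those were called lower.

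Pheomelanin, the red pigment, needs cysteine, and its supply genes showed no common direction: 8 of 22 rose and 9 fell (median −0.06). GCLC, the catalytic subunit for glutathione synthesis, rose by 1.19, while its modifier GCLM fell by 0.48. The cystine importer SLC7A11 fell from 294 ± 26.4 to 223 ± 7.04 CPM (−0.40 ± 0.07), the lysosomal cystine exporter CTNS by 0.83, and the cysteine-making enzyme CTH by 0.63.

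**Figure D3:**
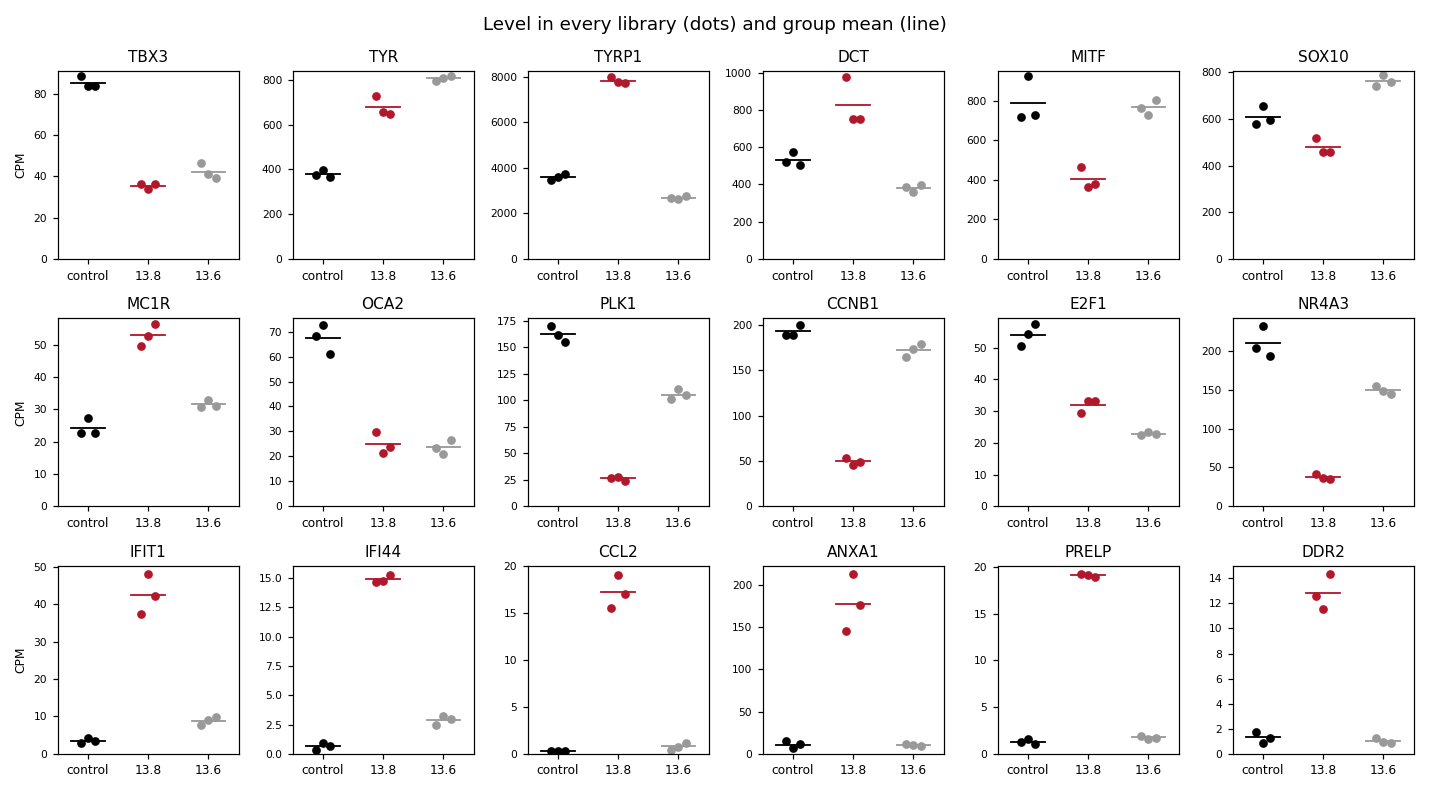
CPM (y axis, from 0) in every library (dots) with the group mean (line) for 18 genes in the control group, with 13.8 and with 13.6. TBX3 is low with both reagents, TYRP1 and DCT are above the controls with 13.8 and below them with 13.6, and MITF, PLK1 and CCNB1 are lowest with 13.8.

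Genes of the cell division cycle fell nearly as a block. Of 47 genes of G2 and M phase, 45 fell and 1 rose (median −1.26), and of 45 genes of S phase and DNA replication, 43 fell and 0 rose (median −0.97). CCNB1, which encodes cyclin B1, stood at 189, 189 and 199 CPM in the controls and 53.7, 46.0 and 48.7 CPM with 13.8 (−1.96 ± 0.07, adjusted p = 2.81e-10). The phosphatase CDC25A fell by 1.79 on the log2 scale, the kinesin KIF2C by 1.65, cyclin A2 (CCNA2) by 1.54 and the checkpoint kinase TTK by 1.26. HMMR was the member that rose (0.24 ± 0.07, adjusted p = 0.0129), a call lost without 13.8 replicate 1 (adjusted p = 0.0598), and the kinetochore gene NUF2 did not pass (−0.06 ± 0.06, adjusted p = 0.392). In S phase, CLSPN, a mediator of the replication checkpoint, fell from 32.8 ± 2.57 to 10.3 ± 0.903 CPM (−1.67 ± 0.09), the histone chaperone subunits CHAF1B by 1.58 and CHAF1A by 1.39, and the flap nuclease FEN1 by 1.33. E2F1, the transcription factor of G1 exit, stood at 50.6, 54.1 and 57.5 CPM against 29.3, 33.1 and 33.1 CPM (−0.77 ± 0.07). CCNE1, cyclin E1, did not pass (0.03 ± 0.12, adjusted p = 0.85). Of the 45 genes of G2 and M phase called lower, 1 holds the 7-base word, which is also the only carrier among the 47 tested. Over all genes tested with an annotated 3′ UTR, 10.99% hold it. Any part of the word in these falls was not tested. In bulk RNA, fewer dividing cells and less of these transcripts per cell cannot be told apart.

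Brakes of the cycle, listed with their partners, did not share a direction. Of 15 CDK inhibitors, pocket proteins and their partners, 4 rose and 8 fell, and the count higher was 2 without control replicate 1, control replicate 2, 13.8 replicate 2 or 13.8 replicate 3. CDKN2B, which encodes p15, stood at 56.3, 37.8 and 47.5 CPM against 133, 147 and 149 CPM (1.60 ± 0.12, adjusted p = 1.70e-07), and its neighbour CDKN2A rose as given above. CDKN1B, p27, did not pass (0.08 ± 0.07, adjusted p = 0.303). The pocket protein gene RBL2 fell by 0.89. Cyclin D1 (CCND1) and CDK6, which are partners and not brakes, fell by 0.40 and 0.72. Targets of p53 fell more often than they rose, 12 against 4 of 26: GADD45A fell by 1.13, RRM2B by 1.16 and AEN by 0.92, while ZMAT3 rose by 1.40. MDM2 (−0.17 ± 0.08, adjusted p = 0.0898; 0.0113 without control replicate 3) and BBC3 (0.26 ± 0.12, adjusted p = 0.0709; 0.00524 without control replicate 3 and 0.0193 without 13.8 replicate 1) did not pass.

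Interferon-stimulated genes rose, with exceptions. Of 40 tested, 30 rose and 5 fell (median 1.18), beside 27.5% and 27.9% of all genes. Members with almost no reads in the controls could pass the read filter only through knockdown libraries, so their rise was fixed by the filter. IFIT1, which binds foreign RNA ends, stood at 2.90, 4.24 and 3.42 CPM in the controls and 37.4, 48.0 and 42.1 CPM with 13.8 (3.60 ± 0.14, adjusted p = 7.10e-10). IFI44 stood at 0.325, 0.962 and 0.66 CPM against 14.6, 14.8 and 15.3 CPM (4.55 ± 0.22), and BST2, the tetherin that holds budding virus, at 0.541, 0.832 and 0.391 CPM against 9.13, 10.9 and 12.2 CPM (4.19 ± 0.22). OAS1, which senses double-stranded RNA, rose by 2.41, IFIT3 by 2.36 and the helicase DDX60 by 2.05. IFITM3 rose by 1.37, and its reads may be shared with the near-identical IFITM family. Against this, the antiviral GTPase MX1 fell from 15.1 ± 1.00 to 9.45 ± 0.173 CPM (−0.68 ± 0.10), the exonuclease ISG20 by 0.65 and PLSCR1 by 0.66. STAT2, part of the factor that activates these genes, did not pass (−0.16 ± 0.07, adjusted p = 0.0747; 0.00624 without control replicate 3 and 0.0446 without 13.8 replicate 1).

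Nucleic acid sensors and genes of antigen presentation rose more often than they fell. Of 18 nucleic acid sensors and relays, chiefly of double-stranded RNA, 10 rose and 4 fell. DDX58, now RIGI, stood at 5.41, 5.69 and 4.55 CPM against 15.9, 17.0 and 14.6 CPM (1.60 ± 0.11), and IFIH1 rose by 0.82. TMEM173, now STING1, which relays the sensing of DNA, rose by 1.36. The kinase TBK1 fell by 0.43, TRAF3 by 0.71 and the Dicer partner PRKRA by 0.67, and IRF3 did not pass (−0.21 ± 0.13, adjusted p = 0.182). No read of IFNB1, interferon beta, was counted in any of the 6 libraries, and the receptor gene IFNAR1 rose from 31.8 ± 2.25 to 71.9 ± 1.36 CPM (1.18 ± 0.07). Of 19 genes for MHC class I presentation, 13 rose and 0 fell (median 0.55). HLA-B rose by 1.02, HLA-C by 0.62, the light chain B2M by 0.76 and the peptide transporter TAP1 by 0.76. Reads of the HLA genes may be split among near-identical copies.

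Inflammatory genes of the NF-kB class did not rise as a group. Of 17 chemokine and NF-kB feedback genes, 3 rose and 5 fell, 3 without control replicate 2 (median −0.05). Besides CCL2, the neutrophil chemokine CXCL8 stood at 21.3, 14.5 and 24.8 CPM against 82.7, 123 and 105 CPM (2.36 ± 0.20, adjusted p = 1.57e-06), and CSF1 rose by 0.84. Of the feedback genes, TNFAIP3, which encodes A20, fell by 0.82 and NFKBIZ by 1.21. NFKBIA did not pass (0.23 ± 0.10, adjusted p = 0.0611), though the 6 libraries alone and a mean of at least 50 reads called it higher. The fall in RELA of 0.24 and that in NFKB1 of 0.32 were lost without control replicate 2 (adjusted p = 0.0543 and 0.0659), and that in NFKB1 also without 13.8 replicate 2 (adjusted p = 0.0506).

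The interferon-stimulated response element, searched as GAAA, any 2 bases and GAAA again on both strands, was looked up in the 300 bases around each start site that RefSeq lists (GRCh38.p14), since these genes moved together. Of the 31 interferon-stimulated genes tested that have such a promoter, 22 hold the element, and 15 of those 22 rose, against 7 of the 9 without it. All 5 interferon-stimulated genes that fell are among the 22 with the element. Of the 27305 promoters listed, 4.38% hold it. The 452 tested genes with it were called higher in 33.9% and lower in 23.7%, beside 27.6% and 29.2% of the 10833 without. The lines below show 30-base windows on the gene's strand with the element in capitals. They cover first 4 of the 15 that rose and then 3 of the 5 that fell.

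IFI44, chr1:78649761-78649790, plus strand: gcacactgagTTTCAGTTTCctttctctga
BST2, chr19:17405741-17405770, minus strand: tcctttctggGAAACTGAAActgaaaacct
IFIT1, chr10:89392497-89392526, plus strand: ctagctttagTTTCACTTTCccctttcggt
DDX60, chr4:168318821-168318850, minus strand: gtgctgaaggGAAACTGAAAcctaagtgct
ISG20, chr15:88638937-88638966, plus strand: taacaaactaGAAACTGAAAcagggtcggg
PLSCR1, chr3:146544667-146544696, minus strand: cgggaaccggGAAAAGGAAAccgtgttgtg
MX1, chr21:41420559-41420588, plus strand: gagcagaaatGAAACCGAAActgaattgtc

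The element is thus present in genes that rose and in genes that fell. In IFI44 and IFIT1 it lies on the opposite strand and reads TTTC, 2 bases and TTTC. The T-box word AGGTGTGA was found in the promoters of 117 genes tested, which were called higher in 27.4% and lower in 33.3%, beside 27.8% and 28.96% of those without it. The cAMP response element TGACGTCA, held by 424, went with 24.1% called higher and 37.3% lower, beside 27.99% and 28.7%. A match in this window is a description of the letters, and binding was not measured.

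Matrix and receptor genes usual in fibroblasts rose from low levels. Of 27 in the list, 19 had enough reads to be tested, of which 14 rose and 0 fell (median 1.48). The read filter passes a gene with enough reads in the libraries of 1 group only. A member as scarce in the controls as POSTN could pass only through libraries where it was high. The rise of such members was thus fixed by the filter, here and among the collagen chains, and the tallies lean toward rises. POSTN, a matrix protein of connective tissue, gave 2, 2 and 5 reads in control libraries against 244, 191 and 173 with 13.8, a ratio of 56.9 with an exact 95% interval from 29.8 to 125 for counting error. FAP, a surface protease, had 12, 12 and 9 reads against 150, 182 and 166, and THY1, a GPI-anchored adhesion protein, 6, 20 and 22 against 196, 202 and 159. LUM, lumican, rose by 1.81 on the log2 scale and S100A4 by 2.42. FBLN1 (−0.19 ± 0.08, adjusted p = 0.0729; 0.0182 without control replicate 3 and 0.0431 without 13.8 replicate 1) and LOXL2 (−0.03 ± 0.23, adjusted p = 0.934) did not pass. Of 22 collagen chains tested, 16 rose and 1 fell (median 0.71): COL9A1 rose by 2.51, COL16A1 by 2.33, COL1A2 by 2.58 and COL5A3 by 1.55, and the basement membrane chain COL4A1 fell by 1.23.

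The marker list for fibroblasts, which shares FAP, THY1, POSTN, LUM, DCN and PDGFRA with the list above, moved with these genes. Its summed level was 5.70 to 7.14 CPM in the controls, 28.5 to 29.7 CPM with 13.8 and 7.25 to 8.96 CPM with 13.6, and 8 of its 8 members tested rose, of 10 in the list. The limit that the read filter sets on such a tally, given above, holds for these markers too. The call of DCN, decorin, was lost without control replicate 1 (adjusted p = 0.0536) or 13.8 replicate 3 (adjusted p = 0.0667), and that of PDGFRA without control replicate 2 (adjusted p = 0.074) or 13.8 replicate 1 (adjusted p = 0.0538). The remaining pair had too few reads to be tested: COL3A1 gave 1, 0 and 1 reads in control libraries against 8, 7 and 21 with 13.8, and PDGFRB 3, 8 and 3 against 17, 9 and 7. No fibroblast marker was at 0 with 13.8. Whether a few cells of another kind or the melanoma cells themselves gave these reads was not tested. Of the other marker lists, that for keratinocytes summed to 41.5 to 46.0 CPM in the controls and 40.2 to 44.8 CPM with 13.8, of which KRT10 gave 43.1 ± 2.75 and 41.9 ± 2.57 CPM, and KRT5 had no reads. Endothelial markers summed to 1.13 to 1.98 and 1.53 to 2.08 CPM, and leukocyte markers to 74.0 to 78.5 and 78.4 to 84.2 CPM, of which CD68 gave 74.2 ± 2.87 and 78.8 ± 3.17 CPM.

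Adhesion genes and the undifferentiated melanoma state rose more often than they fell. Of 27 integrins, cadherins and adhesion genes, 15 rose and 3 fell (median 0.46). The integrin gene ITGAV rose from 85.6 ± 3.64 to 190.2 ± 6.05 CPM (1.15 ± 0.06), its partner ITGB1 by 0.86, ITGA1, a collagen receptor chain, by 1.79, ALCAM by 2.41 and the filament gene VIM by 0.74, while ITGA9 fell by 0.95 and ITGA7 by 0.90. Of 24 genes that mark undifferentiated or neural crest-like melanoma, 11 rose and 4 fell (median 0.68). CAV1, a coat protein of caveolae, rose from 36.9 ± 0.455 to 88.8 ± 2.73 CPM (1.27 ± 0.06), WNT5A by 1.54 and CTGF, now CCN2, by 0.80. Members that fell were the neural crest receptor RXRG, by 0.71, and the AP-1 genes JUN, by 0.43, and FOSL2, by 0.55. The AP-1 and TEAD readout CYR61, now CCN1, did not pass (0.13 ± 0.13, adjusted p = 0.435; 0.0477 without control replicate 1). The wider Hippo list gave 8 higher and 8 lower of 25, with YAP1 up by 0.82 and its paralog WWTR1, TAZ, which fell by 0.55. Of 9 annexins tested, 4 rose and 3 fell. ANXA13 fell by 1.33, and ANXA9 rose by 1.10 on few reads, a call lost without control replicate 2 (adjusted p = 0.0798), control replicate 3 (adjusted p = 0.0559) or 13.8 replicate 3 (adjusted p = 0.078). ANXA2 rose by 0.42, ANXA6 by 0.68 and ANXA7 fell by 0.59.

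All 4 inhibitors of differentiation, the ID proteins that block helix-loop-helix factors and respond to BMP, rose. ID1 stood at 2.45, 2.21 and 2.98 CPM in the controls and 15.7, 17.1 and 17.3 CPM with 13.8 (2.71 ± 0.12, adjusted p = 1.14e-09). ID3 stood at 46.2, 53.9 and 61.8 CPM against 238, 295 and 303 CPM (2.37 ± 0.12, adjusted p = 7.98e-09). ID2 rose by 2.004 and ID4 by 1.71, and the groups did not overlap for ID1 or ID3. The ligand BMP6 rose from 0.831 ± 0.189 to 4.72 ± 0.305 CPM (2.51 ± 0.19), the inhibitory SMAD6, itself a BMP target, by 1.59, TGFBR2 by 0.78 and SMAD2 by 0.59. The receptor gene BMPR1A fell by 0.33 and the repressor SKIL by 0.47, and SMAD4 did not pass (−0.12 ± 0.06, adjusted p = 0.112; 0.0441 without 13.8 replicate 1). In the list of epithelial-mesenchymal and TGF-beta genes, 16 of 31 rose and 4 fell (median 0.56).

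**Figure D4:**
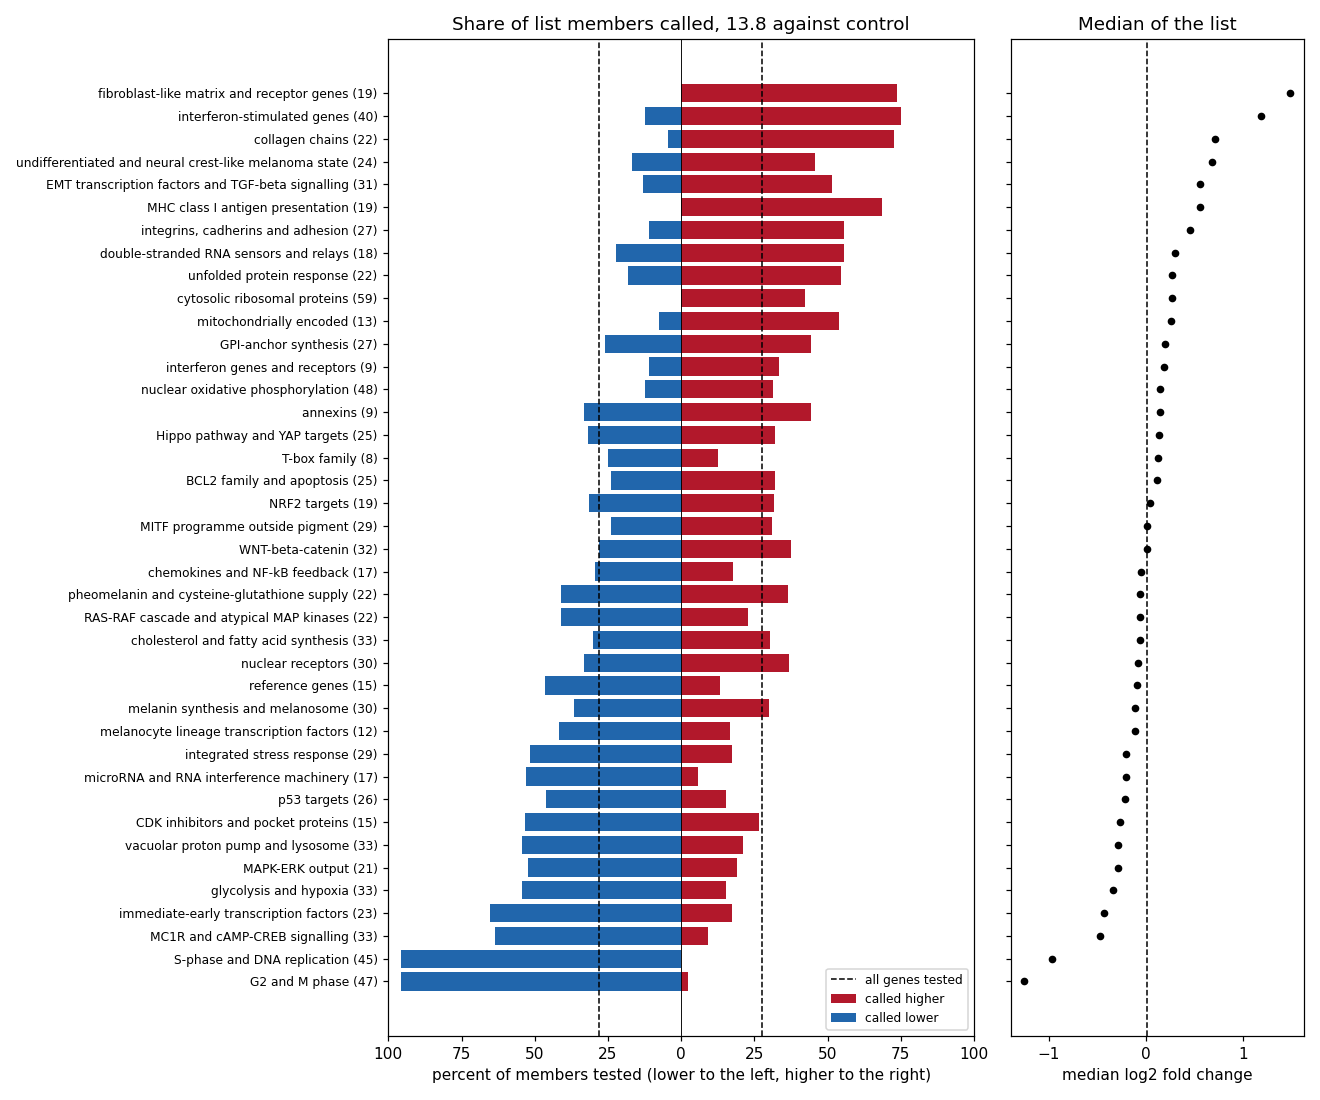
For each gene list with 8 or more members tested, the left panel shows the percent of members called higher (red, right of 0) and lower (blue, left of 0) with 13.8, with dashed lines at 27.5% and 27.9% for all genes tested, and the right panel the median log2 fold change with a dashed line at 0.01. The cell type and melanoma marker lists are not drawn. Lists are ordered by their median, from G2 and M phase at −1.26 to the fibroblast-like matrix genes at 1.48.

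Genes that growth factors induce fell more often than they rose. Of 23 immediate-early transcription factors, 15 fell and 4 rose (median −0.43). EGR1 stood at 251, 267 and 206 CPM in the controls and 119.9, 105 and 103 CPM with 13.8 (−1.14 ± 0.09, adjusted p = 2.35e-07), EGR2 fell by 1.28, ATF3 by 1.11 and FOS by 0.69, whereas KLF2 rose by 1.51 and KLF4 by 0.70. JUNB (−0.08 ± 0.10, adjusted p = 0.524) did not pass. Among 21 genes of MAPK-ERK output, 11 fell and 4 rose: the feedback inhibitor SPRY1 fell by 1.73 and SPRY4 by 0.55, ETV1, an ETS factor of the melanocyte lineage, rose from 49.5 ± 1.02 to 163 ± 5.15 CPM (1.72 ± 0.06), and DUSP6 did not pass (−0.02 ± 0.05, adjusted p = 0.774). In the cascade itself NRAS stood at 307, 291 and 316 CPM against 125, 128 and 122 CPM (−1.28 ± 0.06), and MAP2K1, MEK1, fell by 0.99. In all, 9 of 22 cascade genes fell and 5 rose.

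WNT and nuclear receptor genes were mixed. Of 32 WNT genes, 12 rose and 9 fell (median 0.01): the receptor gene FZD7 rose by 1.13 and FZD2 by 1.42, while the transcription factor TCF7 fell by 0.80, the scaffold AXIN1 by 0.60 and the secreted inhibitor DKK2 by 1.31. CTNNB1, beta-catenin, did not pass (−0.12 ± 0.07, adjusted p = 0.187; 0.0459 without 13.8 replicate 1). Among 30 nuclear receptors, 11 rose and 10 fell. NR2F1, COUP-TF1, rose from 17.1 ± 1.48 to 64.8 ± 4.09 CPM (1.92 ± 0.08), RARB, itself induced by retinoic acid, by 1.65, and PPARD fell by 0.96.

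Stress programmes differed in direction. Integrated stress response genes gave 15 lower and 5 higher of 29 (median −0.21). PSAT1, an enzyme of serine synthesis, stood at 24.9, 26.5 and 26.5 CPM against 134, 137 and 137 CPM (2.39 ± 0.06, adjusted p = 7.55e-11), and NUPR1 rose by 1.46, while PPP1R15A fell by 0.82 and the amino acid carrier SLC7A5 by 0.81. ATF4, the transcription factor of the response, did not pass (0.12 ± 0.10, adjusted p = 0.323; rounded to 0.05 and just past the threshold without control replicate 3). Of 22 unfolded protein response genes, 12 rose and 4 fell. The chaperone HSP90B1 rose by 0.65 and CRELD2 by 0.88, PDIA6, a disulfide isomerase, fell from 299 ± 2.84 to 145 ± 3.89 CPM (−1.05 ± 0.05), and HYOU1 did not pass (0.11 ± 0.06, adjusted p = 0.119). NRF2 targets gave 6 higher and 6 lower of 19, with HMOX1 up by 0.38 and NQO1 not passing (0.07 ± 0.09, adjusted p = 0.535). In the BCL2 family, BIK, which opposes BCL2, had 8, 7 and 15 reads in control libraries against 82, 80 and 92 with 13.8, BCL2L11, BIM, rose by 0.83 and the survival protein gene MCL1 fell by 0.82. Of 25 apoptosis genes 8 rose and 6 fell.

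Among metabolic and organelle lists, glycolysis and hypoxia genes fell more often than they rose, 18 against 5 of 33 (median −0.34), with ANKRD37 down by a log2 change of −1.24, ENO2 by −1.08 and PGAM1 up by 1.65. GAPDH did not pass (−0.07 ± 0.08, adjusted p = 0.471). Genes of the vacuolar proton pump and lysosome fell in 18 and rose in 7 of 33 (median −0.28): ATP6V1C1 fell by 1.13, ATP6AP1 by 1.004 and the calcium channel MCOLN1 by 0.88. Cholesterol and fatty acid genes gave 10 higher, 6 without control replicate 1, and 10 lower of 33. SC5D, an enzyme of a late step of cholesterol synthesis, rose by 1.43. GPI-anchor genes rose in 12 and fell in 7 of 27, so that the fall of PIGA stood against its list, and PIGH fell by 0.79 while the remodelling enzyme PGAP3 rose by 1.53.

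Of the nuclear genes for oxidative phosphorylation, 15 of 48 rose and 6 fell (median 0.14), and the count higher was 25 without control replicate 3 and 9 without control replicate 1, control replicate 2, 13.8 replicate 2 or 13.8 replicate 3. ATP5F1, now ATP5PB, rose by 1.47, NDUFA5 by 1.004 and the succinate dehydrogenase subunit SDHA fell by 1.14. Mitochondrially encoded genes gave 7 higher and 1 lower of 13, 11 higher without control replicate 2, with ND2 up by 0.53. Cytosolic ribosomal protein genes had 25 higher and 0 lower of 59 (median 0.27). That count rested on single libraries: it was 53 without control replicate 3, 40 without 13.8 replicate 1, 15 without 13.8 replicate 3, and 13 without control replicate 1, control replicate 2 or 13.8 replicate 2. RPL7A rose by 1.16 and RPL4 by 0.49, and reads of these genes may be shared with their many processed copies.

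Genes of the small RNA pathway fell more than they rose, 9 against 1 of 17 (median −0.21). RAN, the GTPase of nuclear transport, stood at 503, 538 and 569 CPM against 223, 221 and 215 CPM (−1.29 ± 0.06, adjusted p = 4.02e-09), DROSHA fell by 0.76, AGO2 by 0.54 and DICER1 by 0.42, while TNRC6C rose by 0.65. Among 15 genes often used as references, 7 fell, 4 without 13.8 replicate 3, and 2 rose. ACTB (−0.06 ± 0.06, adjusted p = 0.45) and PPIA (0.02 ± 0.09, adjusted p = 0.858) did not pass, and YWHAZ fell by 0.87.

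The direct difference between the 2 reagents against TBX3 was then tested, 13.8 minus 13.6, in the same fit. It called 8995 of 14731 genes (61.1%), 4448 higher with 13.8 (30.2%) and 4547 lower (30.9%). Of the 14731 genes, 5950 were called both here and in 13.8 against control, where 55.5% were called. Both tests use the same 13.8 libraries, so that overlap is not read as a result. With 13.6 against the same controls, 7357 genes were called (49.9%). The comparisons with control share the control libraries, so their values are set side by side only. Of 47 genes of G2 and M phase, 45 were lower with 13.8 than with 13.6, and of 45 genes of S phase 37 were lower and 3 higher. CCNB1 stood at 164, 173 and 179 CPM with 13.6, a difference of −1.80 ± 0.07 (adjusted p = 4.17e-10). E2F1 went the other way, with a difference of 0.48 ± 0.07 (adjusted p = 9.11e-05). Interferon-stimulated genes were higher with 13.8 in 19 and lower in 6 of 40. IFIT1 differed by 2.26 ± 0.13 (adjusted p = 1.07e-08), whereas DDX58 did not pass (0.14 ± 0.10, adjusted p = 0.253) and OAS1 was lower with 13.8 (−0.48 ± 0.12, adjusted p = 0.00477).

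Of 30 melanin and melanosome genes tested, 9 were higher with 13.8 than with 13.6, 8 were lower and 13 did not pass. These shares are near the 30.2% and 30.9% of all genes tested, so a difference between the reagents is no trait of this list. Single members and regulators are given here by their values. TYRP1 stood at 2687, 2643 and 2752 CPM with 13.6, and 13.8 minus 13.6 was 1.54 ± 0.07 (adjusted p = 9.14e-10). TYR rose with both, to 808 ± 11.9 CPM with 13.6, and was lower with 13.8 by a difference of −0.25 ± 0.06 (adjusted p = 0.00434). OCA2 did not pass in the direct difference (0.07 ± 0.12, adjusted p = 0.615), with 23.4, 20.9 and 26.5 CPM under 13.6. MITF stood at 766, 729 and 807 CPM with 13.6, near the controls, a difference of −0.93 ± 0.11 (adjusted p = 9.26e-06). MC1R was higher with 13.8 by 0.74 ± 0.08 (adjusted p = 4.78e-06). Matrix genes were higher with 13.8 than with 13.6 in 14 and lower in 2 of 19: PRELP differed by 3.45 and DDR2 by 3.68, while THY1, at 109, 134 and 92 reads with 13.6, did not pass (0.56 ± 0.25, adjusted p = 0.067).

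Among genes called in both tests, and with a mean of 5 CPM or more, differences above 13.6 were largest in MLIP (4.76), CCL2 (4.44), ANXA1 (4.13), CXCL8 (3.94), INHBE (3.76), DDR2, HKDC1 (3.51), P2RX6 (3.48), SORBS2 (3.46) and PRELP. MLIP, a lamin-interacting protein, stood at 3.87, 3.20 and 3.94 CPM in the controls, 13.1, 15.1 and 14.2 CPM with 13.8 and 0.654, 0.323 and 0.594 CPM with 13.6. The largest below were in HTN1 (−3.21), CTLA4 (−2.99), PIGA (−2.53), APOLD1 (−2.49), the acyl-CoA synthetase ACSL1 (−2.36), PRPS2 (−2.35), OIP5 (−2.26), DCTN6 (−2.22), SMAD9 (−2.18) and ESR2 (−2.15). HTN1 stood at 9.28, 6.16 and 10.3 CPM in the controls, 3.41, 4.12 and 3.78 CPM with 13.8 and 34.3, 38.0 and 32.2 CPM with 13.6, and CTLA4, known as an inhibitory receptor of T cells, at 36.6, 45.2 and 43.2, then 10.99, 11.2 and 12.1 and 90.2, 93.2 and 88.5 CPM. Of these 10 genes 5 hold the 7-base word, and of the 10 above none does, beside 10.99% of genes tested with an annotated 3′ UTR. The word and both sets were picked from these data, so these counts are a description and support nothing.

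**Figure D5:**
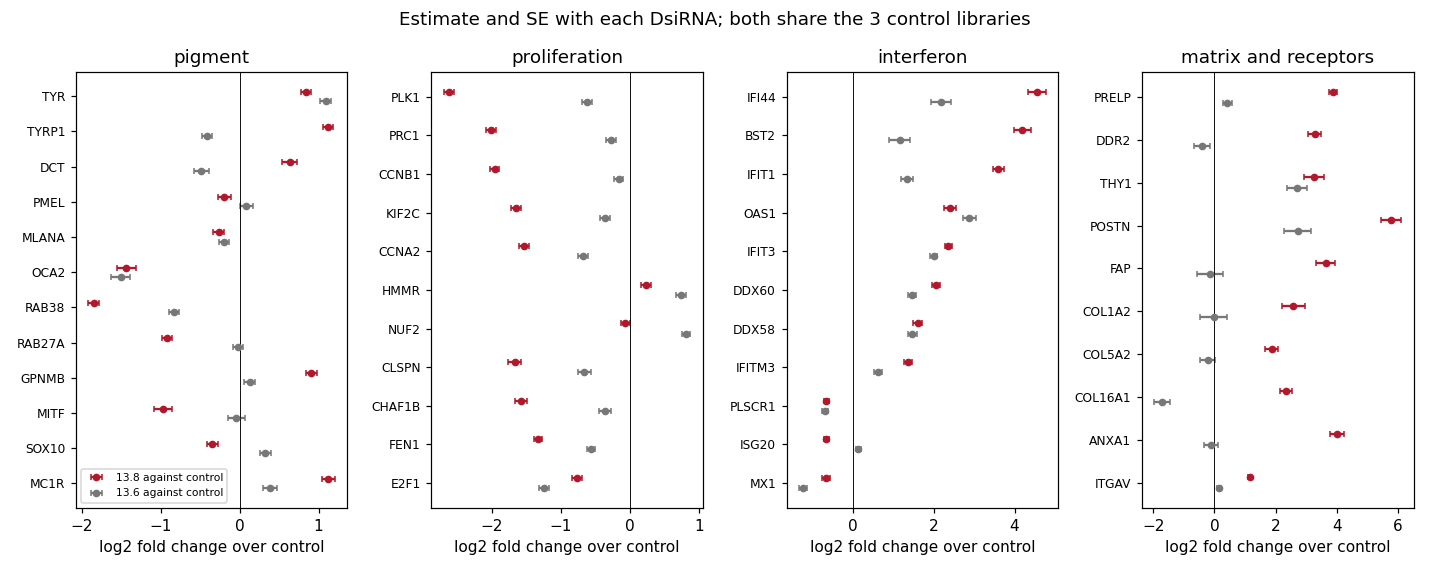
Log2 fold change over control (x axis) with its SE for 13.8 (red) and 13.6 (grey) in 4 groups of genes; both share the 3 control libraries, so the pairs are not independent. TYRP1, DCT and SOX10 lie on opposite sides of 0, TYR and OCA2 on the same side, PLK1, PRC1 and CCNB1 lie further below 0 with 13.8, and E2F1 lies further below 0 with 13.6.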

How the data were processed

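Total RNA of 9 libraries of 501mel was sequenced by the submitters. The deposited values are raw counts, whole numbers of reads for each gene symbol, made by the authors with cutadapt, FastQC, STAR and HTSeq on the build hg19, and DESeq2 was used as well, per the submitters' processing notes. No source used here gives versions, annotation or strand setting. Symbols are printed as in the table. The authors' normalized table was not used here.

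Of 25398 entries, 16 exact repeats were left out and 3249 of the 25382 kept had no reads. Another 28 entries carry a date in place of a name, hold 0.200% of the counts, and are not named. The counts were fitted with edgeR 4.0.16 (R 4.3.3): filterByExpr with a count minimum of 10 (14731 genes, 99.97% of counts), TMM, and a robust quasi-likelihood fit over all 9 libraries with 6 residual degrees of freedom. The filter asks for enough reads in as many libraries as 1 group holds, so a gene nearly absent from the other groups can pass. Tests were two-sided and adjusted by Benjamini-Hochberg over the 14731 genes, at an adjusted p under 0.05, and SEs are from that fit. CPM values are scaled by TMM, and means ± SD are over n = 3 libraries. On simulated counts over 14532 genes for 13.8 against control, 100 genes were changed 2-fold and 100 were changed 1.5-fold. Of those that passed the filter, the fit recovered 85.9% and 69.4%, and it called 9 unchanged genes. Far more genes were called in the data, so these shares do not give the power of this comparison. Lists are described by counts and medians, with no test. A few list members count in these figures but are not reported here by name.

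Named genes are TBX3, the 15 higher and 15 lower with the largest change at a mean of at least 5 CPM with no overlap between the groups, the 10 above and 10 below 13.6, up to 8 members of each list by adjusted p, up to 3 called against the list, up to 3 that did not pass, and a set of fixed genes. The comparison, lists and named genes were chosen with earlier results of these data known. The 3′ UTRs come from GENCODE 29 (GRCh38), the promoters from RefSeq (GRCh38.p14), and no hg19 positions are given. Alternatives were DESeq2 1.42.0, limma-voom (limma 3.58.1), other scalings and filters, a stricter threshold, the 6 libraries alone, a replicate block, genes with the 7-base word left out, and each library left out.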

Additional observations from a re-analysis of the deposited data

Results flagged for a closer look

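In 4 genes of the fixed set that is named whatever its values, both reagents gave a call against control, in opposite directions, and the direct difference of 13.8 minus 13.6 passed the edgeR quasi-likelihood test. Genes outside that set were not screened in this way, and MLIP, HTN1 and CTLA4, given above, also stood on opposite sides of the controls. TYRP1, the pigment enzyme, was at 1.12 with 13.8 and −0.42 with 13.6 on the log2 scale, a difference of 1.54 (adjusted p = 9.14e-10). DCT, which acts in the same pathway, was at 0.64 and −0.49, a difference of 1.12 (adjusted p = 5.33e-07). SOX10, the lineage transcription factor, was at −0.35 and 0.32, a difference of −0.67 (adjusted p = 3.39e-06). PIGA, of GPI anchor synthesis, was at −2.18 and 0.35, a difference of −2.53 (adjusted p = 8.72e-11), with 3 copies of the 7-base word in its 3′ UTR. In each of the 4 genes the libraries of a group lay on their own side of the other reagent's libraries. Groups of 3 libraries are too small for a check of single outlying samples.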

How the results depend on the processing

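The 8169 genes called for 13.8 against control became 7609 with the 6 libraries alone, 8330 with DESeq2, 8229 with limma-voom, 8204 with DESeq2 size factors, 8174 with library totals, 8007 with no filter, 7601 at a mean of at least 50 reads and 6322 at an adjusted p under 0.01. Leaving out each library in turn gave 7164 (without 13.8 replicate 2) to 8450 (without control replicate 3). TBX3 stayed between −1.30 and −1.24 on the log2 scale without each library. For 13.8 against 13.6, leaving out each library gave 8021 to 8720 genes, and library totals moved its split to 4879 higher and 4096 lower. With genes holding the 7-base word left out, which removes TBX3 itself, 7237 and 7946 genes were called. Of 354 named genes called, 334 kept their direction and call under each alternative run on them, and 0 named genes reversed. Same-numbered control and 13.8 libraries deviated from their group means with correlations of 0.070, −0.179 and 0.166. Groups this small cannot show whether the numbers pair the samples. A replicate block gave 8803 genes for 13.8 against control, 9581 for 13.8 against 13.6 and −1.27 for TBX3, and moved the ribosomal proteins called higher to 46. The median 95% interval of a log2 fold change reached 0.21 to each side, so smaller differences were mostly not detectable at this depth and replication.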

Other observations

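Some members of the lists had too few reads to be tested, and a few of them, chosen after their values were seen, belong to groups described above. CCL5, a chemokine of the antiviral response, had 0, 0 and 0 reads in control libraries, 6, 9 and 10 with 13.8 and 0, 3 and 1 with 13.6. ACTA2, smooth muscle actin, had 5, 6 and 8 reads in control libraries, 9, 17 and 23 with 13.8 and 2, 3 and 3 with 13.6. CDH2, which encodes N-cadherin, had 3, 2 and 5 reads in control libraries against 4, 8 and 5 with 13.8. Other untested members had fewer reads with 13.8. The collagen gene COL5A1 had 22, 8 and 8 reads in control libraries against 6, 5 and 5 with 13.8, and VCAM1 had 12, 0 and 1 against 0, 0 and 1. The 13.8 libraries of CCL5 lay above the controls, whereas those of ACTA2 and CDH2 overlapped them once reads are divided by library totals.

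IFI44L and IFITM1, also chosen after their values were seen, were interferon-stimulated genes of low abundance that rose with 13.8. With so few control reads, both passed the read filter only through knockdown libraries. IFI44L, the paralog of IFI44, had 1, 0 and 0 reads in control libraries, 44, 59 and 50 with 13.8 and 47, 29 and 50 with 13.6. IFITM1 had 0, 7 and 1 reads in control libraries, 139, 210 and 183 with 13.8 and 8, 13 and 16 with 13.6. OAS3, an enzyme of the same family as OAS1, went from 56.2 ± 6.74 to 44.0 ± 2.20 CPM (−0.35 ± 0.08, adjusted p = 0.00224), so members of 1 family took different directions.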
